A study of Mus musculus with 2 samples.

Results

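The genes described here belong to the activity-regulated programme of neurons and to the targets of the transcription factor CREB. They are the immediate early transcription factors Fos, Fosb, Jun, Junb, Egr1, Egr2 and Nr4a1 and the effector genes Bdnf and Per1, with Arc. All probe sets that the platform's probe table pairs with exactly 1 of these symbols were taken. This gave 12 probe sets for 9 of the 10 genes, out of 12418 probe sets in all and 10829 with 1 symbol. Arc was not analysed here. Total RNA of mouse cerebral cortex had been measured on 2 oligonucleotide arrays, 1 for the control and 1 for the presenilin conditional double knockout, named PS cDKO. The labels give the mice of both groups an age of 6 months. The comparison asks how cortical expression differs once presenilin, the catalytic subunit of the protease γ-secretase, is lost. The labels give no strain, sex, Cre driver, allele, number of animals or pooling. On these arrays Per1, a clock repressor, was 1.38-fold lower in the PS cDKO cortex and Egr1, a zinc finger factor, 1.20-fold lower. Fosb, Egr2, Junb and Bdnf had values from 1.05-fold lower to 1.19-fold higher, Jun and Nr4a1 lay at the edge of the background, and Fos was near background on both arrays. Each genotype has 1 array, so the spread between animals is unknown and no test was made.

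Neuronal firing lets calcium into the cell, and calcium- and cAMP-dependent kinases phosphorylate CREB, which is bound to cAMP response elements (CREs) in the promoters of its targets. With its co-activators CREB then drives a quick first wave of transcription. The first wave holds transcription factors of the Fos, Jun, Egr and Nr4a families, which switch on later genes, and it also holds effectors that act directly at synapses or in signalling, such as the neurotrophin Bdnf. In cortex, transcripts of this class are short-lived and follow the recent activity of the animal and the handling of the tissue. They are also made in glia and vessels, so RNA of whole tissue does not give the level in neurons. In bulk tissue, fewer cells of a type and less RNA per cell cannot be told apart.

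The promoters are shown first because CREB acts on its targets through CREs. RefSeq windows of the build GRCm38.p6 were found for 8 of the 10 members, which have 19 annotated starts among them. Egr1 and Arc had no entry. In the 250 bases before each start, both strands were searched for the CRE half-site TGACG, the full palindromic CRE TGACGTCA, which holds a half-site on each strand, the AP-1 site TGACTCA, to which Fos and Jun dimers bind, and the TATA box TATAAA. A CRE half-site was found before 10 of the 19 starts and in 7 of the 8 genes. Over all 32851 windows of the same length the share was 17.8%, and over 27025 genes it was 19.8%. These shares are not a like comparison. The members were listed as activity-regulated and CREB target genes and have more windows per gene, and 3 of the 10 starts are overlapping ones of Egr2. Neither the full CRE nor the AP-1 site was found before any of the 19 starts. Their shares over all windows were 1.55% and 4.46%. The TATA box was found before 1 member start, that of Fos, and in 12.4% of all windows. These are matches of letters in the annotated windows, and binding was not measured.

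For each gene the half-site nearest to a start is printed with 20 bases on either side, 5′ to 3′ on the gene's strand. The half-site is in capitals, and it reads CGTCA where it lies on the other strand.
Fos, chr12:85473804-85473848, + strand: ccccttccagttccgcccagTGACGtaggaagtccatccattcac
Fosb, chr7:19310081-19310125, - strand: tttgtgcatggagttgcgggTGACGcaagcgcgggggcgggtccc
Junb, chr8:84978830-84978874, - strand: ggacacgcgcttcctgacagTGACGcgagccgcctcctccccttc
Egr2, chr10:67537794-67537838, + strand: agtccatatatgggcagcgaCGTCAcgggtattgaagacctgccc
Nr4a1, chr15:101266786-101266830, + strand: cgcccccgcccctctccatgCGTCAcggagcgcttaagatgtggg
Bdnf, chr2:109692381-109692425, + strand: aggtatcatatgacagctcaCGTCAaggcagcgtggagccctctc

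The Fos half-site began 66 bases upstream of the start, with a further one at 129 bases. Fosb had 1 at 60 bases and Junb 1 at 106 bases. Nr4a1 had 4, the nearest at 40 bases. Of the 5 annotated starts of Egr2, 3 overlap one another and share the same pair of half-sites, the nearer of them at 55 bases from the third start. Bdnf has 7 annotated starts, each used by its own transcripts, and only 1 had a half-site, at 35 bases. Jun had none in its window. Per1 had 1 before each of its 2 starts, at 246 and 132 bases. Its window with the nearer match is printed whole because Per1 showed the widest difference of the members with a ratio. The 250 bases end at the start, and the capitals mark the half-site.
Per1, chr11:69099902-69100151, + strand: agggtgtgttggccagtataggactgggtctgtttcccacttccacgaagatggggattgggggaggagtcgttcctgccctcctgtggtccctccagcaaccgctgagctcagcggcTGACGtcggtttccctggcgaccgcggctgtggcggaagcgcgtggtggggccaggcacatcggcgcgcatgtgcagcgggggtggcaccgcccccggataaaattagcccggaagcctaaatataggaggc

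**Figure D1:**
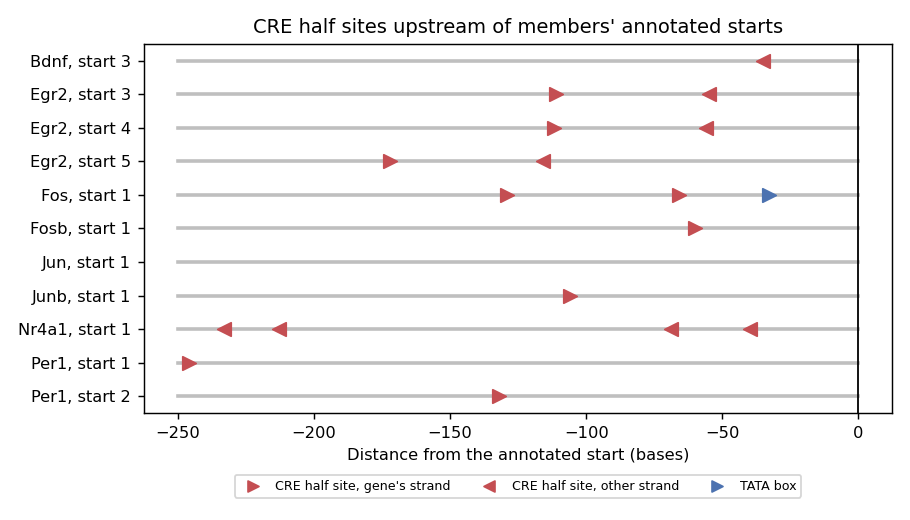
Positions of CRE half-sites (red) and the TATA box (blue) in the 250 bases before annotated starts of the members; the x axis is the distance from the start in bases and the arrowheads give the strand. Starts without any match are drawn only for genes with 1 start; Nr4a1 carries 4 half-sites and Jun none.

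Levels below are the deposited array intensities, on a linear scale, and probe sets differ in brightness for technical reasons, so they are compared between arrays and not with one another. Ratios are log2 of PS cDKO over control after the PS cDKO array was raised by 0.034 on the log2 scale. Intensities under a floor of 232, the 40th percentile of both arrays together, were set to the floor. A probe set under the floor on both arrays is called near background and has no ratio, and one under it on 1 array has a bound. Of the 12 member probe sets, 7 passed the floor on each array, 2 gave a bound and 3 were near background. The floor is a convention and not a detection call. The 31 probe sets of genes of other organs, such as Alb and Ckm, had medians of 224 in control and 258 in PS cDKO cortex, and 14 of them were near background. Their 75th percentiles were 444 and 392. The probe sets of Fos, Jun, Nr4a1 and Bdnf and the dimmer one of Egr1 lay below those values on both arrays, so their signals do not by themselves show that the transcript is present. The highest other-organ values were 1497 in control and 1241 in PS cDKO cortex. Per1, Fosb, the brighter Egr1 probe set and the dimmer Junb one lay between these values and the 75th percentiles on both arrays. Brightness alone therefore does not set them clear of background either. Egr2, at 1260 in control and 1323 in PS cDKO cortex, passed the highest other-organ value only on the PS cDKO array.

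The Fos family encodes the partners of Jun proteins in the AP-1 transcription factor. Fos itself was near background in both of its probe sets. The first read 131 in control and 199 in PS cDKO cortex, and the second 31.1 and 58.6. Both values of both probe sets lay under the floor, the PS cDKO value being the higher one each time, and no ratio was formed from them. Without a floor their log2 ratios would be 0.63 and 0.95, and with a floor at the 20th percentile, a signal of 114, only the first probe set had a ratio. Fosb, whose truncated product ΔFosB builds up with repeated stimulation, read 1195 in control and 1224 in PS cDKO cortex. Its log2 ratio was 0.07, or 1.05-fold higher in the PS cDKO.

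Jun, the founding Jun protein and a target of the stress kinase JNK, read 214 in control and 239 in PS cDKO cortex. The control value was under the floor and the PS cDKO value just over it, which gave a bound of at least 1.06-fold higher. Junb, a Jun family member that can restrain Jun, was measured by a pair of probe sets. One read 527 in control and 491 in PS cDKO cortex, with a log2 ratio of -0.07. The other read 3863 and 4490, with a log2 ratio of 0.25, or 1.19-fold higher, and 0.40 after lowess scaling, which takes it past 1.3-fold. The pair pointed in opposite directions and differed by 0.32. From the 2 brightest probe sets of each of 749 genes, the error SD of 1 log2 ratio came to 0.21. It reflects how far probe sets of a gene disagree and leaves out any spread between animals.

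The Egr genes encode zinc finger factors induced by synaptic activity. Egr1, also known as Zif268 and much used as a marker of neuronal activation, read 1043 in control and 847 in PS cDKO cortex. It was 1.20-fold lower, with a log2 ratio of -0.27, a little more than the error SD of 0.21. Of all probe sets with a ratio, 25.8% had one as large in either direction. The further Egr1 probe set was near background, at 96.8 and 102. Egr2, also called Krox20, read 1260 in control and 1323 in PS cDKO cortex, with a log2 ratio of 0.10. Nr4a1, an orphan nuclear receptor also known as Nur77, read 219 in control and 240 in PS cDKO cortex. Like Jun it straddled the floor, and its bound was at least 1.06-fold higher.

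Bdnf, the neurotrophin that strengthens synapses through the receptor TrkB, read 306 in control and 333 in PS cDKO cortex. Its log2 ratio was 0.15, or 1.11-fold higher, which is within the error SD of 1 probe set. With a floor at the 60th percentile, a signal of 403, Bdnf was near background. Its deposited probe set is 1 for the whole gene, and which of the 7 starts its transcripts used cannot be read from it. Per1, a repressor of the circadian clock that is also induced by light and by CREB, read 656 in control and 465 in PS cDKO cortex. Its log2 ratio was -0.46, or 1.38-fold lower. Of the 6255 probe sets that passed the floor on each array, 3.04% had a ratio as low or lower. By the measure used for Egr1, 5.98% of all probe sets with a ratio had one as large in either direction.

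**Figure D2:**
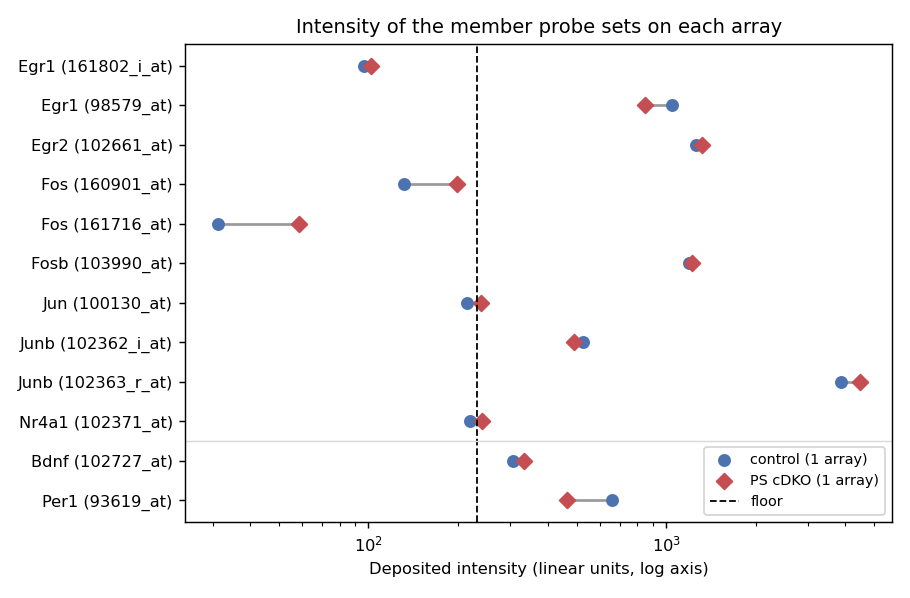
Deposited intensity (x axis, linear units drawn on a log axis) of each of the 12 member probe sets on the control array (blue circles) and the PS cDKO array (red diamonds); the dashed line is the floor of 232, and the effector genes are the lowest pair of rows. Each point is 1 array. Both Fos probe sets and 1 of Egr1 lie left of the floor on both arrays, and Per1 and Egr1 have the widest gaps to the left among those right of it.

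Per1 was the only member probe set that differed by 1.3-fold or more. Of the 9 with a ratio, 1 was at least 1.3-fold lower, and over all 6905 probe sets with a ratio 5.62% were. At least 1.3-fold higher were 0 of the 9, against 5.68% of all. A single probe set among 9 does not set the members apart from that background. Genes of other organs reached ratios nearly as wide as that of Per1, at similar signals. Of 14 such genes with a ratio, 2 passed 1.3-fold upward, Prm1 (log2 ratio 0.45, 487 against 650) and Ins2 (0.44, 457 against 606). Downward 1 did, Tnp1 (-0.42, 497 against 363), whose further probe set had a bound of 0.44. These measured ratios of Prm1, Ins2 and Tnp1 came from probe sets with a suffix in their names, which that of Per1 lacks. Among unsuffixed other-organ probe sets that passed the floor on each array, the widest ratios were 0.29 (Alb) and -0.24 (Umod). The Tnp1 probe set with the bound was unsuffixed. The size of the Per1 ratio therefore does not by itself set it clear of background. The median log2 ratio of the 9 member probe sets was 0.08, with 6 higher and 3 lower, while the median over all probe sets with a ratio was 0.01. The members' median was -0.00011 with the 60th-percentile floor, and 0.13 with the 20th-percentile floor or none. The 25th and 75th percentiles of all ratios without bounds were -0.16 and 0.16. Fosb, Egr2, Bdnf and 1 Junb probe set were between them, Per1 and Egr1 below and the other Junb probe set above.

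Among the immediate early transcription factors 7 of 10 probe sets had a ratio. Their median log2 ratio was 0.08, the lowest being Egr1 at -0.27 and the highest Junb at 0.25. None of the 7 reached 1.3-fold. The effector genes had 2 probe sets, Bdnf at 0.15 and Per1 at -0.46, with a median of -0.15. The effectors thus lay in opposite directions. Bdnf was inside the range of the transcription factors and Per1 below it, and with 2 effector values no difference between these roles can be drawn. The probe sets near background were all of transcription factors, 2 of Fos and 1 of Egr1.

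**Figure D3:**
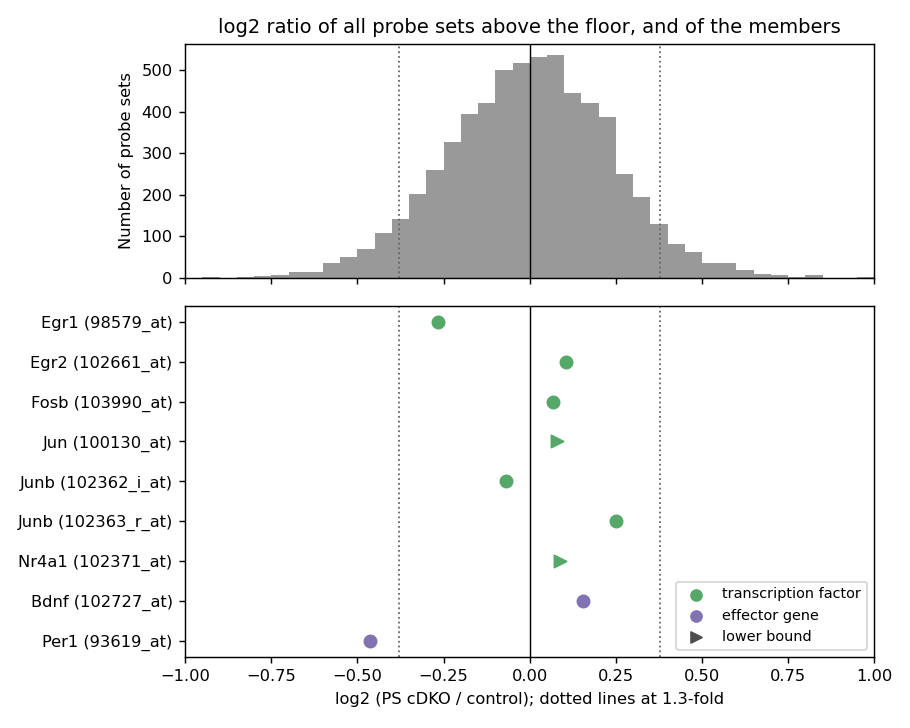
Top, number of probe sets (y axis) by log2 ratio of PS cDKO over control for the 6255 probe sets that passed the floor on each array, drawn from -1 to 1. Bottom, the log2 ratio of each of the 9 member probe sets with a ratio, with circles for measured values and triangles for bounds; green marks transcription factors and purple effector genes, and dotted lines mark 1.3-fold. Only Per1 lies beyond a dotted line.

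Other genes of the programme, taken from lists of further early transcription factors and effectors, were described by gene as the mean over probe sets that passed the floor on each array, or as a bound. The list of 29 further early transcription factors also held a few early genes of other kinds, such as an inhibitor of NF-κB. Of the 29, 24 had a probe set with 1 symbol, and 19 of these had a ratio. They divided into 10 higher and 9 lower, with a median log2 ratio of 0.02. Maff, a small Maf factor, was the only one with a gene value past 1.3-fold, a bound of at least 1.31-fold lower (303 against 226). Crem, a CREB family gene, had probe sets with opposite bounds, one at least 1.34-fold higher (221 against 302) and one at least 1.06-fold lower, and their mean was 0.17. Maff and Crem were named after their values were seen. Over all 5885 genes with a ratio, 5.15% were at least 1.3-fold lower and 5.35% at least 1.3-fold higher, and the median was 0.01. Of 46 further effectors 34 had a probe set, 21 had a ratio and 13 were near background. None of the 21 reached 1.3-fold in either direction, and their median was 0.06. With no floor, 9 of the 34 were at least 1.3-fold higher, and with a floor at the 20th percentile 4 were. The share over all genes was not counted at these settings, so these counts do not set the effectors apart. The median log2 ratio over all genes also rose, to 0.03 with the 20th-percentile floor and 0.04 with none.

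CREB itself, its co-activator and the kinases and partner factors above the members formed another list, of which 22 of 39 genes had a probe set and 19 a ratio. The median log2 ratio was -0.06, with 7 higher and 12 lower. The list also held opposing regulators, such as a phosphatase subunit and co-repressors of Egr factors. Its median and counts therefore give no direction for the pathway. Creb1 had a gene value of 0.20, from probe sets that disagreed. One Creb1 probe set read 358 in control and 478 in PS cDKO cortex, a log2 ratio of 0.45, and another 589 and 554, a log2 ratio of -0.06. A further Creb1 probe set was near background. Crebbp, the acetyltransferase CBP that CREB recruits, read 463 in control and 409 in PS cDKO cortex. It was 1.11-fold lower, a log2 ratio of -0.15, which is smaller than the SD of a single probe set. Ep300 was not analysed here.

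Map2k1, the kinase MEK1 of the ERK cascade that feeds into CREB and Egr1, read 897 in control and 647 in PS cDKO cortex, or 1.35-fold lower. It was the only gene of this list at least 1.3-fold lower, and a further Map2k1 probe set was near background. Mef2c, a factor that with calcium signals controls activity-regulated genes in excitatory neurons, had a gene value of -0.27 from widely spread probe sets. They read 1043 against 608 (log2 ratio -0.75), 1041 against 837 (-0.28) and 355 against 403 (0.22), with a further one at least 1.42-fold lower. Ppp1cb, a catalytic subunit of protein phosphatase 1, which dephosphorylates CREB, was the only gene at least 1.3-fold higher. Its bound was at least 1.52-fold (189 against 343), and it was named after its value was seen. So 1 of the 19 genes with a ratio was past 1.3-fold in each direction. Over all genes with a ratio, 5.15% were lower and 5.35% higher by that much, so these counts do not set the list apart.

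Markers of cortical cell types also differed between the arrays. Of all 5885 genes with a ratio, 5.15% were at least 1.3-fold lower and 5.35% at least 1.3-fold higher. Of the 9 excitatory neuron markers found, 6 had a ratio and 5 of these were lower, 3 of them past 1.3-fold, such as Nrgn and Tbr1. Their summed intensity was 8788 in control and 6599 in PS cDKO cortex, and Cux2, Neurod6 and Rasgrf2 were near background. Of 10 inhibitory neuron markers 8 had a ratio and 5 were lower, 2 of them past 1.3-fold, Sst and Npy (each 1.47-fold). The summed intensities of the inhibitory markers were 9397 and 7807. All 8 astrocyte markers had a ratio and 6 were higher, 4 of them past 1.3-fold, with sums of 13423 and 16066. Gfap, the astrocyte intermediate filament, made up that gain in summed intensity, and without it the sums were 12777 and 12558. All sums here are of deposited intensities before scaling, and bright probe sets weigh most in them. By ratio Aqp4 (1.45-fold), Gja1 (1.46-fold) and Vim (1.38-fold) were higher as well, while Aldoc (1.19-fold) and Glul (1.08-fold) were lower. The Gja1 value came from probe sets that disagreed. The brighter one had a log2 ratio of 0.02 (1455 against 1440) and the dimmer one 1.08 (250 against 515). Of 11 microglia markers 9 had a ratio and all 9 were higher, 5 of them past 1.3-fold. The microglia sums were 4742 and 7162, and Aif1 and Fcer1g were near background. The remaining lists had lower sums on the PS cDKO array. Choroid plexus and meningeal markers, with 3 of 5 ratios lower, summed to 4375 and 3838, and Ttr was 1.84-fold and Igfbp2 1.60-fold lower. Both blood markers were lower, with sums of 2360 and 1731 and Hba-a1 1.37-fold lower. Oligodendrocyte markers, with 3 of 4 ratios lower, summed to 9369 and 8186, and Mobp was 1.36-fold lower. Endothelial and mural markers, with 1 of 4 ratios lower, summed to 2733 and 2642, the lower one being Cldn5 at 1.35-fold. Several members are made in neurons as well as in glia and vessels, and the part of these shifts in the members' values was not tested. The probe set of Psen2, a presenilin gene, read 105 in control and 94.9 in PS cDKO cortex, both near background, so it gave no check of the genotype.

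**Figure D4:**
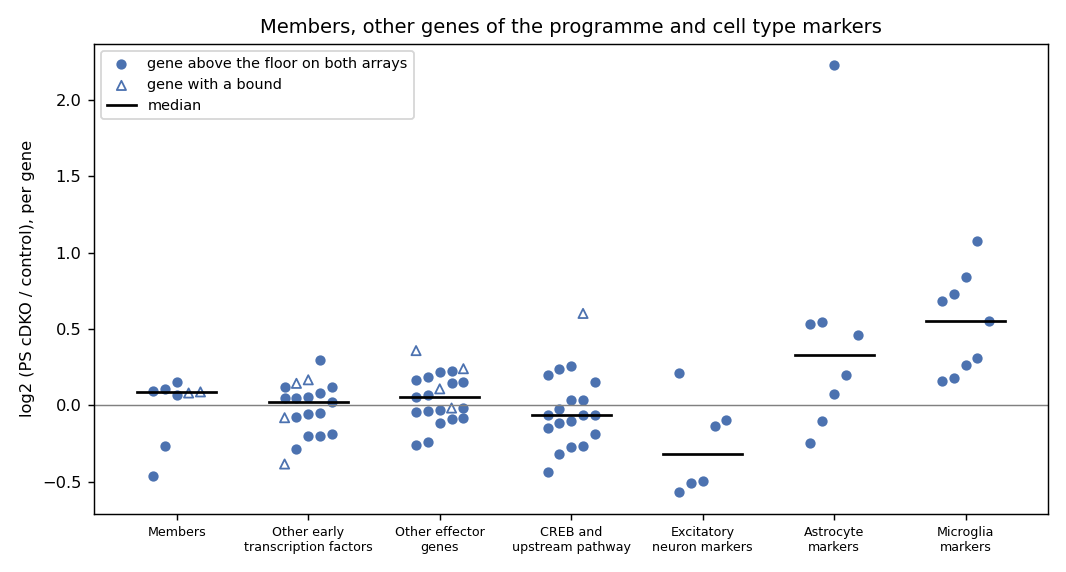
The log2 ratio of PS cDKO over control per gene (y axis) for the members, 3 further lists of the programme and markers of 3 cell types (x axis); filled circles are genes above the floor on both arrays, open triangles are bounds, and the black line is the list's median. The members and further lists have medians close to 0, while excitatory neuron markers have a median of -0.32 and microglia markers one of 0.55.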

How the data were processed

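Each probe set has 1 deposited intensity on each array, on a linear scale; the authors' software, background step and scaling were not given in the sources used here, nor was the probe sets' genome build. Array medians were 300 (control) and 305 (PS cDKO). Negative intensities (13 and 18) show that a subtraction had been applied before deposit. No counts or detection calls were used, and the number of arrays limits the precision.

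Scaling of the PS cDKO array brought the median log2 ratio of probe sets above both arrays' medians to 0; then the floor was set and log2 taken. A platform annotation that can be old named 10829 probe sets with 1 symbol; 396 had several and 1193 none. Of the 10829, 10813 had their gene ID in a RefSeq table (GRCm38.p6), which updated symbols. Members and lists were chosen with earlier results of these data known. Named were all members, up to 6 genes per further list with a probe set past 1.3-fold and over the floor on each array, and Crebbp, Creb1 and Ep300; markers were given by counts, with examples. Astrocyte markers without Gfap were summed as an alternative chosen after seeing the data. The code was tested on simulated data. The alternatives numbered 10: other scalings (as deposited, quantile, lowess with span 0.3), the 20th or 60th percentile as floor, or no floor, unsuffixed or brightest probe sets, and 1.5-fold and 2-fold thresholds. Tools were matplotlib 3.10.9, statsmodels 0.14.6, pandas 2.3.3, numpy 2.4.6 and Python 3.11.15.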

Additional observations from a re-analysis of the deposited data

How the results depend on the processing

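No paired analysis was possible because only 1 array stands for each genotype, which also left no array to leave out. Every member ratio kept its sign under each alternative that gave one. Per1 ranged from -0.50 to -0.46, Egr1 from -0.30 to -0.24 and the higher Junb probe set from 0.22 to 0.40. Member probe sets at least 1.3-fold higher, 0 here, became 1 after lowess (Junb), 1 with the 20th-percentile floor (Fos) and 2 with no floor (both Fos). The 1 lower, Per1, became 0 at 1.5-fold and 0 at 2-fold. Those near background, 3 here, became 6 with the 60th-percentile floor, 0 with none and 1 with the brightest probe set of each gene. The effector median was -0.46 with the 60th-percentile floor, where only Per1 is left. Among further early transcription factors the count higher became 1 with no floor (Cebpd) and 1 with the brightest probe sets (Crem), and the count lower 0 with the 60th-percentile floor and 0 at 1.5-fold and 2-fold. Among further effectors the count higher became 4 with the 20th-percentile floor and 9 with none. For member and list counts at the alternative settings, no share over all probe sets or genes was taken as background. In the CREB list the count higher became 0 with the 60th-percentile floor, 3 with none, 2 without suffixed probe sets and 0 at 2-fold; the count lower became 2 with the 60th-percentile floor and 0 at 1.5-fold and 2-fold. The causes were not tested beyond those named. A value counted as moved past the probe set SD of 0.21, and a count past 1.5 times. The signal over background limits Fos, Jun, Nr4a1 and Bdnf most.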
